A study of Mus musculus with 2 samples.

Results

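The Notch receptor gene Notch2 and 7 genes grouped here as Notch effectors were read in tibialis anterior. This is a shin muscle made mainly of fast-contracting fibres. The 7 were the Hes and Hey genes Hes1, Hes5, Hes6, Hey1, Hey2 and Heyl, and the feedback inhibitor Nrarp. They were found by the gene name given beside each probe, which gave 9 probes for the 8 genes, of 33596 probes for 24638 named genes on the array. The N2ICD-mTG group was 1 sample from adult male C57BL/6 mice that carry a transgene for the activated, intracellular form of Notch2 (N2ICD). The control group was 1 sample from adult male C57BL/6 mice labelled control. The promoter that drives the transgene, the part of Notch2 that it holds, and whether animals were pooled are not given in the sources used here. The series title names Notch2 of muscle fibres as its subject, and the comparison asks how muscle with activated Notch2 differs from control muscle.

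Notch receptors are cut when a ligand on a neighbouring cell binds them, and the intracellular part that is released enters the nucleus and joins the DNA-binding protein RBPJ. Together they switch on a small set of genes, best known among them the Hes and Hey genes, whose products are basic helix-loop-helix repressors. A transgene that makes only the intracellular part needs no ligand. In skeletal muscle, Notch signalling is best known for keeping satellite cells, the muscle stem cells, from differentiating, and Hes and Hey genes are also used by endothelial cells and by the mural cells around vessels.

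Each sample was hybridised to 1 array, so no difference below has a replicate check, no p-value was computed, and genotype, animal, dissection and array cannot be told apart. Of 59305 gene spots, 24982 were well above background on the N2ICD-mTG array and 24916 on the control array, and 0 were saturated on either. The tissue label was checked against 7 muscle fibre genes, of which 7 were well above background on both arrays. Myh4, the fast type IIb myosin heavy chain, had a processed signal of 320423 in N2ICD-mTG and 339444 in control. Signals given below are Agilent processed signals, which are background-subtracted intensities not yet scaled between arrays, with the error that Feature Extraction assigns to the spot after the ± sign. Log2 differences are N2ICD-mTG minus control after each array was scaled to its 75th percentile, and the median over 12594 genes measured on both arrays was 0.00.

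The sequences that matter most for reading these values are those of the probes, since each gene was read by 1 spot per probe and a probe reads only its own stretch of the transcript. The first Notch2 probe is shown whole, because its letters fall in protein-coding sequence. For the second Notch2 probe the first 30 of its 60 bases are shown. For Hes1 the last 30 bases are shown, with AATAAA, the hexamer that commonly signals polyadenylation, in capitals.
Notch2 probe at transcript position 7448: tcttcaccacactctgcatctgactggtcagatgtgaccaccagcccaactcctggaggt
Notch2 probe at transcript position 10129: ccacttgaagtcttgcatagaaatgaacca
Hes1 probe at transcript position 1388: tgagaaaatatAATAAAagagtgaaggctt

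Both Notch2 probes lie on the plus strand of chromosome 3 (mm9), at 97951233 to 97951292 and at 97953914 to 97953973. They are 2681 bases apart in the transcript and 2681 bases apart on the chromosome, so no intron separates them. As background, the first probe encodes part of the far C-terminal end of the receptor, which belongs to its intracellular part, and the coding sequence ends soon after it. The second lies in the 3′ untranslated region. This placement rests on general knowledge of the Notch2 protein and not on a reference used here. In the files, the first probe had 0 stop codons in its first reading frame and 1 in each of the others. The second probe also had a frame with 0 stop codons, so this count cannot tell coding from untranslated sequence.

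The probe in the coding end of Notch2 was bright on the N2ICD-mTG array and at background on the control array. Its processed signal was 221 ± 23.0 in N2ICD-mTG and 6.01 ± 6.03 in control, where it was not well above background. The raw spot means, before background was taken off, were 307 in N2ICD-mTG and 92.8 in control. Set against the lowest control signal that counted as well above background, 25.4, the level in N2ICD-mTG exceeded that in control at least 7.72-fold (2.95 as a log2 bound). With normexp background correction, which adds an offset of 50 and so shrinks the differences of dim probes, the bound was 2.87-fold (1.52). Of 1093 probes well above background on the N2ICD-mTG array alone, 8.78% had a bound of at least 2-fold, and 3 had one as large as this, Notch2 included. The authors' deposited table gives this probe a 33.0-fold increase, computed on a control value that it flags as not detected, so that the ratio is no measured fold.

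The probe farther downstream in Notch2 had a processed signal of 179 ± 18.9 in N2ICD-mTG and 189 ± 19.8 in control. Its log2 difference was -0.25, with an error of 0.21 from Feature Extraction. The SD between repeat spots of one probe at that signal, which covers spot noise within these arrays and not the spread between animals, was 0.13. The difference turned to 0.23 on a scale set by spike-in controls, on which the median of all genes moved to 0.48. The probes of Notch2 therefore gave values at least 3.20 apart on the log2 scale, or 9.16-fold. The part of Notch2 that the transgene holds is not given. RNA from the transgene and from the animals' own Notch2 gene therefore cannot be told apart at either probe. Among 201 genes with a probe measured on both arrays and another bright on the N2ICD-mTG array alone, Notch2 was the 1 gene with a gap this large. Among 3104 genes with several probes measured on both arrays, the median range between probes was 0.19, and 1 gene had a range as wide as the Notch2 gap. That set leaves out probes at background on either array, such as the first Notch2 probe. Its ranges are therefore no like measure for a gap that rests on a bound.

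**Figure D1:**
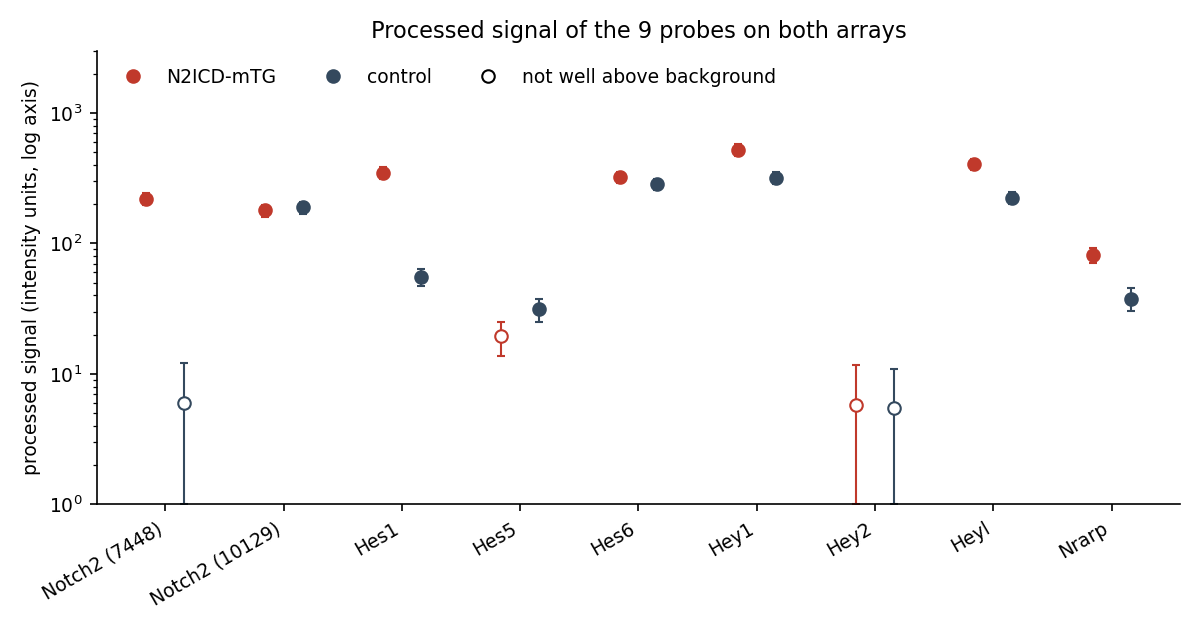
Processed signal (log axis) of the 9 probes on the N2ICD-mTG array (left point of each pair) and the control array (right point). Bars are the Feature Extraction error of the spot, drawn down to the axis floor where the error exceeds the signal, and open points were not well above background. The Notch2 probe at position 7448 stands at 221 in N2ICD-mTG against 6.01 in control, while the probe at 10129 has nearly the same signal on both arrays.

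Hes1, a transcriptional repressor and one of the most direct targets of Notch in many tissues, differed most among the effector genes. Its probe (chromosome 16, 30067820 to 30067879, plus strand) had a processed signal of 348 ± 35.5 in N2ICD-mTG and 55.4 ± 8.43 in control. The N2ICD-mTG array was the higher by 5.59-fold, a log2 difference of 2.48 with a Feature Extraction error of 0.26. With normexp it was 2.86-fold (1.51). Of 21636 probes measured on both arrays, 9 had a difference as large, and 7 of 12594 genes did, Hes1 included in both. Among the 4345 probes in the same band of mean signal, 4 did. Of the 6 member probes measured on both arrays, Hes1 was the 1 that passed 2-fold upwards, against 1.52% of all such probes, and 0 passed 2-fold downwards, against 1.15%.

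Nrarp, a small ankyrin repeat protein that Notch induces and that limits Notch signalling, followed. Its probe (chromosome 2, 25038038 to 25038097) had a processed signal of 81.9 ± 10.6 in N2ICD-mTG and 37.7 ± 7.54 in control. The log2 difference was 0.94 with an error of 0.34, a 1.92-fold higher level in N2ICD-mTG, and the repeat-spot SD at that signal was 0.25. The control signal of Nrarp lay close to the detection limit of 25.4, and its value depended on how background was treated. With normexp it was 0.29.

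Heyl and Hey1, the Hey repressors that vessels and satellite cells are best known to use, were both somewhat higher in N2ICD-mTG. Heyl (chromosome 4, 122926975 to 122927034) had a processed signal of 405 ± 41.0 in N2ICD-mTG and 223 ± 23.2 in control, a log2 difference of 0.69 with an error of 0.21. Hey1 (chromosome 3, 8663432 to 8663491, minus strand) had 524 ± 52.8 in N2ICD-mTG and 320 ± 32.7 in control, a log2 difference of 0.54 with an error of 0.21. These are 1.61-fold and 1.45-fold higher levels. Differences of that size were not rare on these arrays. Of all probes measured on both arrays, 3.71% had a difference at least that of Heyl, 6.33% at least that of Hey1 and 1.68% at least that of Nrarp. At a threshold of 1.5-fold, 3 of the 6 member probes (Hes1, Nrarp and Heyl) were higher, against 5.29% of all probes.

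Hes6 showed almost no difference, and Hes5 and Hey2 were too dim to give a firm direction. Hes6, which differs from the other members in that it opposes Hes1 and favours differentiation, had a processed signal of 321 ± 32.7 in N2ICD-mTG and 284 ± 29.0 in control. After scaling, its log2 difference was 0.01 with an error of 0.21 (chromosome 1, 93308264 to 93308323, minus strand). Hes5, a Notch target best known from neural progenitors, was near the detection limit on both arrays, with 19.4 ± 5.78 in N2ICD-mTG and 31.2 ± 6.04 in control. Only the control spot passed as well above background, which gives an N2ICD-mTG level at least 1.30-fold lower, a log2 bound of -0.37 that turned to 0.10 on the spike-in scale. Of the 1051 probes seen on the control array alone, 779 had a bound at least as far down, so the Hes5 value was ordinary for a probe at that signal. Hey2, best known from heart and arteries, had a probe that stayed at background on both arrays, at 5.80 ± 5.83 in N2ICD-mTG and 5.47 ± 5.48 in control, and no difference was computed.

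Of the 5 effector probes measured on both arrays, 4 were above 0 in every setting tried, and Hes6, at 0.01, fell to either side of 0 with the scaling. Their median log2 difference was 0.69, while 49.7% of all measured probes were above 0. In order of their log2 differences they ran Hes1, Nrarp, Heyl, Hey1 and Hes6. The interval of 1 Feature Extraction error around Hes1, from 2.22 to 2.75, did not overlap that of Nrarp, from 0.60 to 1.29. The intervals of Nrarp, Heyl (0.48 to 0.90) and Hey1 (0.33 to 0.74) overlapped each other, so the order of those 3 is not settled by these spots. The interval of Hes6, from -0.20 to 0.21, lay below those 3 and overlapped none of them. These intervals are errors of single spots and hold no spread between animals or between background treatments. With normexp Nrarp fell to 0.29, below Heyl at 0.57 and Hey1 at 0.425.

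**Figure D2:**
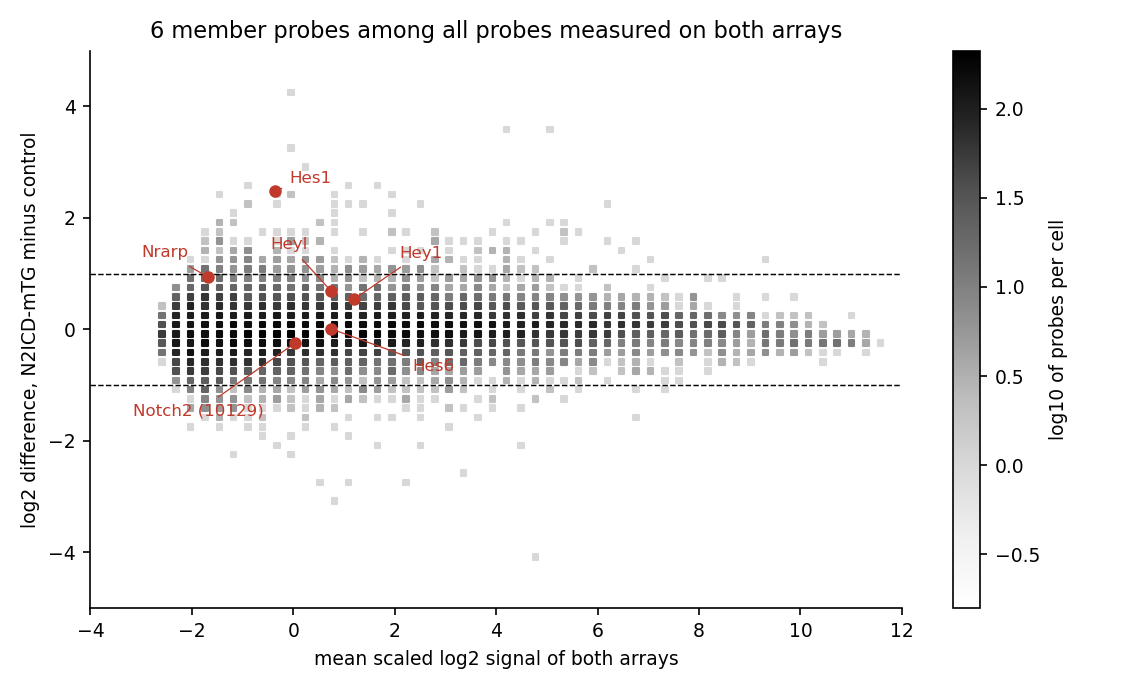
Log2 difference (N2ICD-mTG minus control) against the mean scaled log2 signal for all 21636 probes measured on both arrays, in grey by number of probes, with the 6 member probes in red. Dashed lines mark 2-fold. Hes1 lies at 2.48 among few other probes, while the other 5 lie between the lines.

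The promoters of the members were searched for gtgggaa, the core that RBPJ binds, on both strands, in RefSeq promoter sequences of assembly GRCm38.p6 that run from 250 bases before to 50 bases after a gene's start. An entry was used for 5 of the 8 members, namely Notch2, Hes5, Hes6, Hey2 and Nrarp. Hes5 and Hey2 each held 2 matches, starting 226 and 83 bases before the start site in Hes5 and 207 and 4 bases before it in Hey2. Of 32851 promoters of that length, 6.38% held at least 1 match and 0.256% held at least 2. Notch2, Hes6 and Nrarp held 0 matches in this window. The 250 bases before the start site of Hes5 and Nrarp are shown as a stretch with matches and a stretch without, with gtgggaa and its reverse complement in capitals.
Hes5 upstream, chromosome 4, 154960673 to 154960922, plus strand: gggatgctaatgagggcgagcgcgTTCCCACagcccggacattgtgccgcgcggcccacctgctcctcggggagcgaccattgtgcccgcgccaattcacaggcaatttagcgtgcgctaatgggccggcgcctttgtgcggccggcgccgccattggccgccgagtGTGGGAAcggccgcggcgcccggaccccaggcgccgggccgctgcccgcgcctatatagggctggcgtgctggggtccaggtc
Nrarp upstream, chromosome 2, 25180508 to 25180757, plus strand: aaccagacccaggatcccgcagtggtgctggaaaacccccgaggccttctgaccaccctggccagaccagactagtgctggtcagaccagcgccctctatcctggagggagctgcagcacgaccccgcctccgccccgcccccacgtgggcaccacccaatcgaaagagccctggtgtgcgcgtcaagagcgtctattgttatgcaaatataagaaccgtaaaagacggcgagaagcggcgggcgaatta

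Both members with 2 matches in the window, Hes5 and Hey2, were read near or below background in this muscle and gave no firm difference. Nrarp, which stood 1.92-fold higher in N2ICD-mTG, had no match. Hes1, Heyl and Hey1 had no entry and were not searched, so the matches cannot be set against the differences of the members. The Nrarp stretch does hold cacgtg, a site that many helix-loop-helix proteins bind, 108 bases before the start, as 7.15% of all promoters do. A match is a string of letters and was not tested as a binding site.

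Other genes of the Hes and Hey family and its relatives gave a mixed picture. Of 6 listed, 4 were measured, of which 1 passed 2-fold upwards and 0 downwards, against 1.45% and 0.913% of all genes. The 1 was Hes2, a repressor of the same family, with a processed signal of 67.6 in N2ICD-mTG and 25.7 in control, a log2 difference of 1.22 that rests on a control signal at the detection limit. Bhlhe41, a repressor of the circadian clock, had -0.79 in 1 probe, and another probe seen on the control array only gave a level at least 5.50-fold lower in N2ICD-mTG. Bhlhe40 had 0.18 and Hes7 -0.10. Of 50 receptors, ligands, processing enzymes and nuclear factors of the pathway, 44 were measured. Of these 44, 0 passed 2-fold in either direction, against the same shares of all genes. With shares that small, a count of 0 in 44 genes is near the background. Their median was 0.04, with 26 above 0. Among receptors, ligands and processing genes the outermost were the ligand Dll3 at -0.86, the ligand-like Dlk1 at -0.68, the ubiquitin ligases Mib1 at -0.47 and Itch at 0.41. Among nuclear factors they were the coactivator Maml2 at -0.93, the corepressors Tle1 at 0.36 and Tle2 at -0.27, and Spen at 0.31. The probes of Tle1 ran from 0.07 to 0.85, and those of Tle2 from -0.56 to 0.03. Dll3 and Maml2 had control signals of 48.4 and 48.6, in the dimmest band. The partner that the intracellular part needs on DNA, Rbpj, had 0.06, and the receptors Notch3 and Notch4 had -0.23 and 0.02.

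Genes reported as Notch targets outside this family had a median of -0.20 over 15 measured, with 4 above 0. Of the 15, 0 passed 2-fold, against 1.45% of all genes upwards and 0.913% downwards, so a count of 0 in a list of this size is near the background. The same holds for both shorter lists that follow. Col5a3, a collagen chain that Notch controls in satellite cells, had -0.90, the cell cycle gene Ccnd1 -0.50, the cell cycle inhibitor Cdkn1a 0.50 and Col5a1 -0.46. Genes that Hes1 or Hey proteins repress in other settings had a median of 0.16 over 6 measured, with 4 above 0 and 0 past 2-fold. Ppargc1a, the coactivator of mitochondrial biogenesis, had 0.62, Gadd45g 0.40, the myogenic factor Myod1 0.28 and Prdm16 0.04. Neurog2, Neurod1 and Atoh1, which act in neural differentiation, were not well above background on either array. Myogenic factors had a median of 0.25 over 6 measured, with Mef2c at 0.67, Myog at 0.43 and Myf6 at -0.24, and 0 past 2-fold.

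In bulk muscle, fewer cells of a type and less RNA per cell cannot be told apart, and the members are used by several cell types. Endothelial markers, 8 of 8 measured, had a median of -0.22 with 7 below 0, and a summed scaled signal of 55.0 in N2ICD-mTG and 75.8 in control. Arterial endothelial markers, 5 of 5 measured, had a median of -0.02 and sums of 8.11 in N2ICD-mTG and 8.11 in control. Smooth muscle and pericyte markers, 9 of 9 measured, had a median of -0.02 and sums of 70.2 in N2ICD-mTG and 72.6 in control. In the smooth muscle and pericyte list 4 of 9 genes were above 0, and Cspg4, a proteoglycan of pericytes, was 1.68-fold higher in N2ICD-mTG, at 0.75. The part of vessel cells in the values of the members was not tested. Satellite cell markers stood higher in N2ICD-mTG. In that list 5 of 6 were measured, and 5 were above 0, with a median of 0.73 and sums of 160 in N2ICD-mTG and 62.0 in control. The sum is carried by Itga7, a laminin receptor that muscle fibres also make, at 1.49. Sdc4, a heparan sulfate proteoglycan, had 0.86, the cadherin Cdh15 had 0.73 and Chrdl2 had 0.53, differences of about the size of those of Nrarp, Heyl and Hey1. Pax7, the factor that defines satellite cells, had 0.14, and Calcr stayed at background on both arrays. The part of satellite cells in the values of Hes1, Heyl and Hey1 was not tested. Markers of muscle fibres, fibroblasts, leukocytes and Schwann cells had medians of -0.26, -0.23, -0.43 and 0.04. On the spike-in scale, where all genes moved up by about the same amount, each list median named in the text was above 0.

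**Figure D3:**
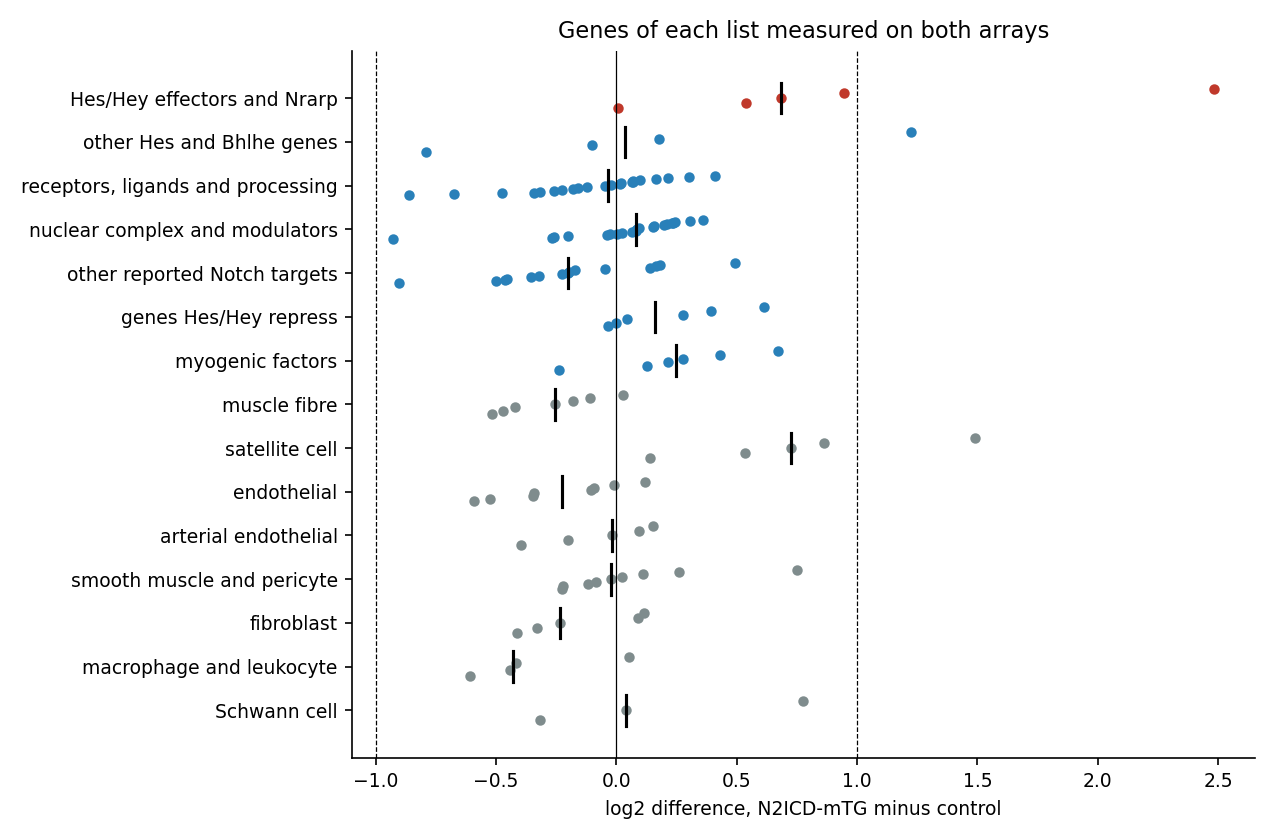
Log2 difference (N2ICD-mTG minus control) of each gene measured on both arrays, by list, with the list median as a black bar and 2-fold as dashed lines. The 5 effector probes are in red, pathway lists in blue and cell type markers in grey. Hes1 at 2.48 lies beyond every gene of the other lists, the nearest being Itga7 at 1.49.

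The count of members past 2-fold depended on the scaling. Nrarp passed 2-fold upwards under median scaling, quantile normalization and loess, where 1.7%, 1.49% and 1.56% of all genes did. Nrarp, Heyl and Hey1 passed it on the spike-in scale, on which all genes moved up and 6.65% passed. Hes1 passed 2-fold under each of the 7 alternatives and lay between 1.51 and 2.96.

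**Figure D4:**
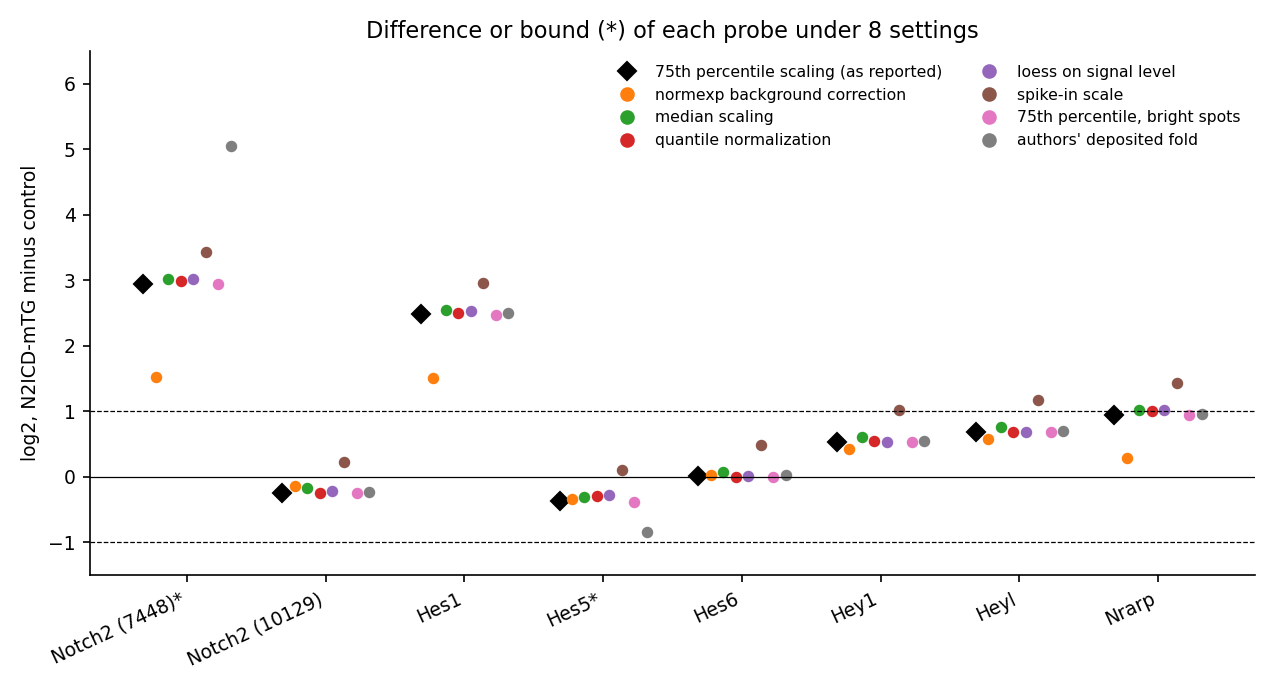
Log2 difference, or bound for the probes marked with an asterisk, of 8 probes under 8 settings, with the setting used in the text as a black diamond and 2-fold as dashed lines. The authors' deposited folds for the asterisked probes are plain ratios to a value not detected and not bounds. Hes1 and the Notch2 probe at 7448 lie at or above 1.51 in each setting, and the Notch2 probe at 10129 lies between -0.26 and 0.23.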

How the data were processed

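Total RNA was labelled with Cy3 and hybridised to 1-colour Agilent arrays, per the labels' protocols. Per the file headers, the deposited spot intensity values (processed and raw) come from Agilent Feature Extraction, version 10.10.1.1, with probe coordinates on mm9. The authors' deposited table gives a fold (ratio), an intensity and a log2 value per array for 23793 probes, 8 of them of these genes, with no account of its making in the sources used here.

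Log2 processed signal was reduced by each array's 75th percentile over 59305 non-control spots, 215 outlier spots were dropped, and repeat spots were averaged to 55672 probes. Other genes were named through RefSeq accessions (27653 probes matched), or else by the gene name given beside the probe where there was one. They were averaged over probes well above background on both arrays. Repeat-spot SDs come from 268 probes in 4 signal bands. A probe seen on 1 array alone gave a bound against the higher of the dim value and the lowest value well above background. Every probe of the 8 members is named, and of each list the members past 2-fold and the 4 with the largest differences. Rbpj, Notch3, Notch4, and the markers and undetected genes named, were chosen after their values were seen. Members, lists and alternatives were chosen with earlier results of these data known. The 2-fold call for probes bright on both arrays was tested on simulated data. The scaling, the dropping of outliers, the averaging, the background filter and the bounds were not tested that way. Tools were Python 3.11.15, numpy 2.4.6, pandas 2.3.3, statsmodels 0.14.6, R 4.3.3 and limma 3.58.1.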

Additional observations from a re-analysis of the deposited data

How the results depend on the processing

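No member passed 2-fold downwards in any of the 12 alternatives run. Of all 12594 genes, 115 (0.913%) did so as reported and 24 on the spike-in scale. A count of 0 among so few members is therefore near the background. The count of members at least 2-fold higher was 1 (Hes1) as reported, and 1 with normexp, a 75th percentile over bright spots, the authors' deposited folds, the brightest probe and a 4-fold threshold. It was 2 with median scaling, quantile normalization and loess (Hes1 and Nrarp), 2 with probes bright on at least 1 array and with no filter on dim probes (Hes1 and Notch2), 3 at 1.5-fold and 4 on the spike-in scale. Notch2 passed there on the mean of its probes, which differ widely. That mean takes the plain ratio of the probe at 7448 to a control value at background, which is no measured fold, and not the bound. The share of all genes past the same threshold upwards was 1.45% as reported, 0.611% with normexp, 2.5% with probes bright on at least 1 array, 3.01% with no filter on dim probes, 5.19% at 1.5-fold, 0.151% at 4-fold and 6.65% on the spike-in scale. Hes1 had a log2 difference of 1.51 after normexp and 2.96 on the spike-in scale. The Notch2 bound of 2.95 was 1.52 after normexp and 3.43 on the spike-in scale, and the authors' deposited table gives 5.04 with no bound set. Normexp adds an offset to every signal, which by construction shrinks differences of dim probes, and the spike-in scale shifts all genes by a constant. Of the 44 other pathway genes measured, 3 passed at 1.5-fold (Dll3, Dlk1 and Maml2), each of them downwards. At that threshold 653 of all 12594 genes were higher and 600 lower, so this count is near the background. In the other 11 alternatives 0 pathway genes passed. No paired analysis was possible because each group has 1 sample. Signal over background limits the readings of the Notch2 probe at 7448, Nrarp, Hes5, Hey2 and Hes2. It also limits the size of the Hes1 difference, which rests on a control signal of 55.4 and fell from 5.59-fold to 2.86-fold with normexp. The single array per group limits all readings.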
